A study of Mus musculus with 9 samples.

Results

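T cells and microglia sorted from the same kind of brain were compared gene by gene. All gene rows of the deposited count table were used, in the 3 columns headed T and the 3 columns headed microglia: 24394 gene rows and 6 of the series' 9 samples, with 2 libraries of group 2 innate lymphoid cells (ILC2) kept in the same fit only to share its estimate of the spread. Both populations came from C57BL/6 mice aged 20 to 22 months, and every mouse had been injected with 400 ng of interleukin-33 (IL-33) on each of 7 days. The labels name no untreated group, so the values describe 2 cell types under IL-33 and not what IL-33 changed. Sorting used surface markers, which are not given, and Trizol-LS served to extract total RNA for single-end sequencing at 75 bp. Whether a sample is 1 mouse or a pool is not stated, so a p-value measures the spread between libraries and that spread may be technical.

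T cells recognise peptides held by major histocompatibility complex (MHC) molecules through a receptor whose CD3 chains carry signalling motifs (ITAMs) that the kinase Lck phosphorylates. They are rare in the young brain and are known to collect in the aged brain, many of them CD8+ cells of a tissue-resident kind. Microglia are the macrophages of the brain parenchyma. They depend on the receptor Csf1r and on the transcription factor PU.1, sense nucleotides and chemokines from neurons, and take up and digest synapses, dying cells and lipid debris.

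The 3 T cell libraries held 8376609 to 13585956 counts on genes and the 3 microglia libraries 10705652 to 12047894, and 11390 to 12474 genes were detected in each. Levels are in CPM, counts relative to the scaled size of their library, listed for libraries 1, 2 and 3 of a population in the order of the columns, which does not pair libraries across populations. Across genes, which are not independent replicates, Pearson's r of log2 levels was 0.845 to 0.852 between T cell libraries, 0.808 to 0.839 between microglia libraries and 0.578 to 0.638 between a T cell and a microglia library.

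The labels were checked against the defining markers of each population. Cd3e, part of the CD3 complex of the antigen receptor, was at 1437, 2241 and 1795 CPM in the T cell libraries and at 1.82, 0 and 0 in the microglia libraries. Cd8a, which cytotoxic T cells use to bind MHC class I, was at 879, 1004 and 887 CPM in T cells and had no count in any microglia library. Tmem119, a surface protein of resident microglia, was at 3489, 4276 and 3169.8 CPM in microglia and 6.40, 66.8 and 94.3 in T cells. Csf1r, the receptor that microglia need to survive, was at 6754, 8970.0 and 5210.4 CPM in microglia and 29.3, 226 and 197 in T cells. The 2 sets of libraries did not overlap in any of the 4 markers. T cell markers were nearly absent from microglia libraries, whereas microglia markers were low but present in T cell libraries. The 18 homeostatic microglia genes listed stood at a median of 0.776%, 2.31% and 2.80% of their microglia mean in T cells 1, 2 and 3. The highest was Selplg, which lymphocytes also express, at 26.7% to 35.6%. In the other direction, the 7 CD3 and co-receptor genes stood at a median of 0.00520%, 0% and 0% of their T cell mean in microglia 1, 2 and 3, with Cd3g highest at 0.5% to 1.05%. In the 2 ILC2 libraries the 18 microglia genes stood at a median of 1.47% and 1.60% of their microglia mean. Whether such low levels come from carried-over RNA or from expression in the sorted cells was not tested.

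Microglia 1 and 3 stood apart in genes of neutrophils. S100a8, a subunit of the neutrophil protein calprotectin, was at 26452, 4072 and 33382 CPM in microglia and 0, 2.55 and 74.5 in T cells. S100a9, its partner, was at 23278, 3924 and 28771 CPM in microglia and 5.97, 5.24 and 30.9 in T cells. The granule gene Ngp was at 14633, 1761 and 14233 CPM in microglia and 32.3, 92.3 and 148 in T cells. In each of these genes microglia 2 was the lowest microglia library, yet still above every T cell library. All 6 neutrophil markers in the table were called higher in microglia, S100a8 no longer without microglia 1, microglia 3 or T cells 2, and their summed level ran from 12462 to 87679 CPM in microglia and from 87.8 to 419 CPM in T cells. Camp and Ltf, which encode granule proteins, had no count in T cells 1 and 2. Left with microglia 2 alone, 2 of the 6 were called. Neutrophil genes are therefore named apart from the microglia results, and each count below is followed, where it moves, by its value without microglia 1 and 3. The part of neutrophil RNA in other differences was not tested.

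**Figure D1:**
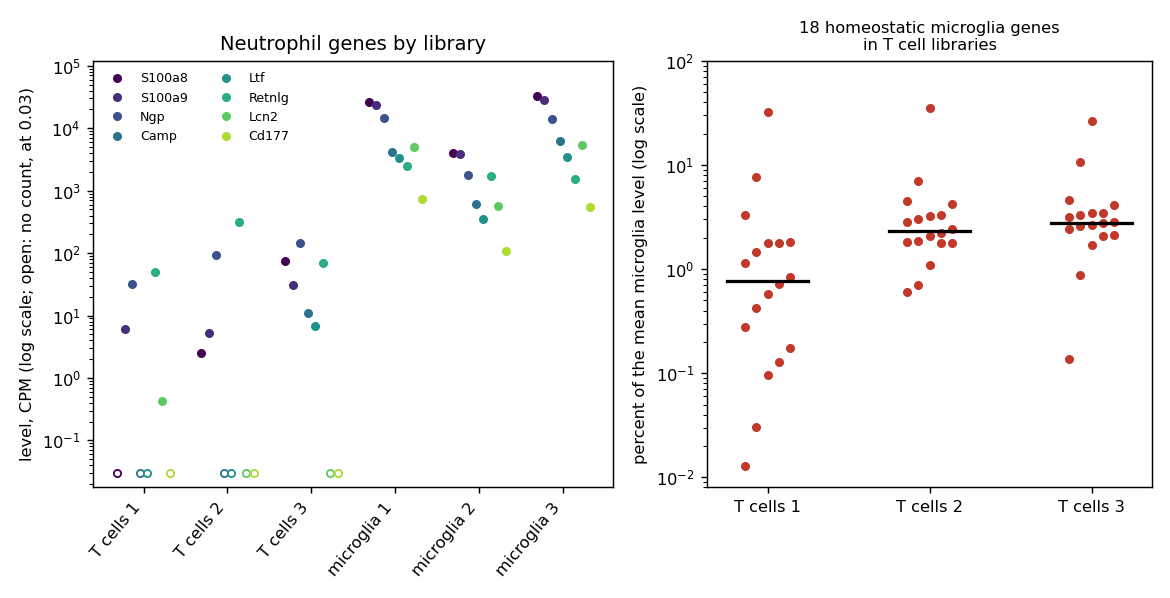
Neutrophil gene levels in CPM on a log scale in each T cell and microglia library (left; 1 colour per gene, open points mark no count) and the level of each of 18 homeostatic microglia genes in each T cell library as a percentage of its mean in microglia, on a log scale (right; bars are medians). Microglia 2 lies below microglia 1 and 3 in 7 of the 8 neutrophil genes, and the medians on the right are 0.776%, 2.31% and 2.80%.

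Of 13000 genes tested, 768 were called higher in T cells, 5.91% of those tested, and 927 higher in microglia, 7.13%, at a Benjamini-Hochberg adjusted p under 0.05 in the quasi-likelihood test of edgeR and a difference of at least 2-fold. No overlap was common without a call: 37.2% of all tested genes had 3 libraries of one population above all 3 of the other. The T cell libraries were the higher ones in 2398 genes and the microglia libraries in 2436. Each count of called or non-overlapping members of a list below is to be read beside these values over all tested genes. The median log2 fold change, T cells minus microglia, was 0.00398 over all tested genes, 2.55 over the genes called higher in T cells and -3.81 over those called higher in microglia. Differences of 4-fold or more made up 475 of the T cell calls and 748 of the microglia calls. Of the called genes, 140 and 148 in that order had no count in any library of the lower population. In bulk RNA, fewer cells with a transcript and less of it per cell cannot be told apart. Without microglia 1 and 3 the counts were 368 and 319.

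**Figure D2:**
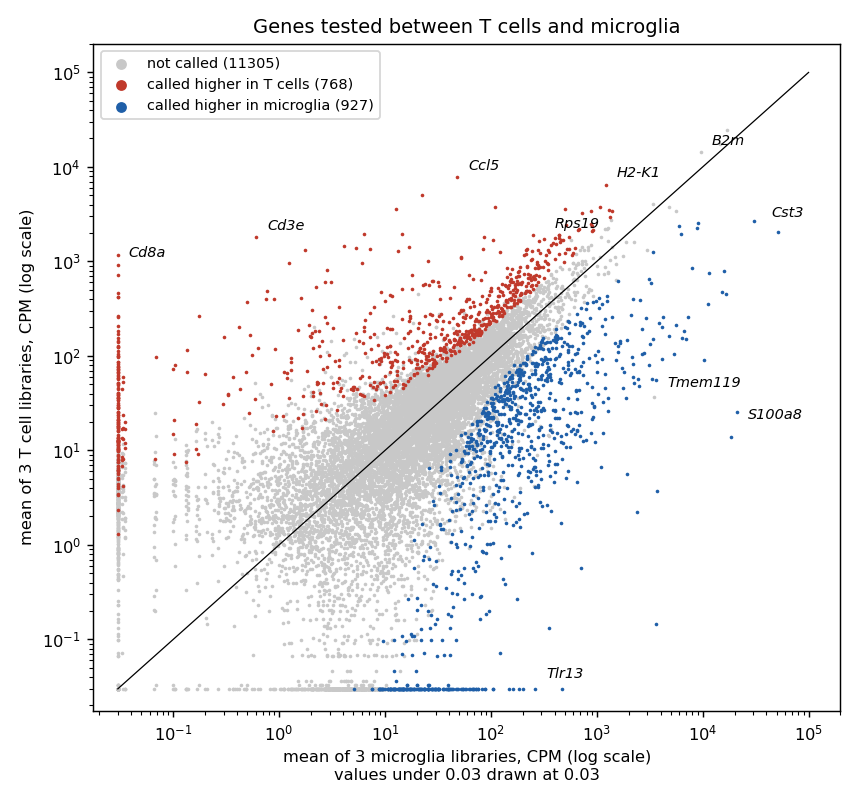
Mean level over 3 T cell libraries against mean level over 3 microglia libraries for the 13000 genes tested, in CPM on log scales, with genes called higher in T cells (768, red) and in microglia (927, blue). Genes with a mean under 0.03 CPM in a population lie on the lower or left edge, where Cd8a and Tlr13 stand, and B2m lies near the diagonal line of equal levels.

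Every gene of the CD3 complex and the CD4 and CD8 co-receptors was higher in T cells: 7 of 7 tested were called, where 5.91% of all tested genes were, with a median log2 fold change of 11.53, or 9.42 when genes without a count in microglia are set at their bound. All 7 calls held without each library in turn and without microglia 1 and 3. Cd3d, a chain that pairs with Cd3e, was at 1535, 1728 and 1131 CPM in T cells and 5.86, 4.15 and 2.19 in microglia, a log2 fold change of 8.49 ± 0.58 (adjusted p = 5.32e-05). Cd3g, another chain that pairs with Cd3e, was at 2009, 2217 and 1655 CPM and 12.8, 20.6 and 9.80, a log2 fold change of 7.09 ± 0.41 (adjusted p = 4.17e-05). Every T cell library lay far above every microglia library in both genes.

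Cd247, which encodes the zeta chain with most of the receptor's ITAMs, was at 497, 534 and 356 CPM in T cells and had no count in microglia, a difference of at least 1520.4-fold against a floor of 3 counts per library. The same bound was at least 3037-fold for Cd8a and at least 687-fold for Cd4, the helper co-receptor, which was at 134, 283 and 209.6 CPM in T cells. Cd8b1, the second CD8 chain, was at 2163, 2177 and 1488 CPM in T cells and 0.101, 12.3 and 6.78 in microglia (adjusted p = 0.00124). Its log2 fold change of 8.25 ± 1.13 moved to 9.14 without microglia 2, and that of Cd3e, 11.53 ± 1.46, moved to 17.32 without microglia 1, which held all its microglia counts. Where the library left out holds every count of a gene in its population, as here, the prior count of the fit sets the value. Per kilobase of exon, the level in T cells was 807 ± 168 CPM for Cd3d, 599.6 ± 86.9 for Cd3g, 447 ± 98.7 for Cd3e and 86.8 ± 17.7 for Cd247 (mean ± SD, n = 3). Cd247 was thus the lowest of the 4 chains by this measure, beyond the spread between libraries. The length used joins all annotated exons of a gene and can exceed that of the transcripts present. The spread does not cover this error.

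Cd3g (chr9:44969572-44980431, minus strand) and Cd3d (chr9:44981786-44987339, plus strand) lie side by side on mouse chromosome 9 in build GRCm38, and their annotated starts are 1355 bases apart and point away from each other. Their promoter windows are shown because this neighbouring pair differed together between the populations, and that of Lck, the kinase that acts on them, because it holds a RUNX motif. RefSeq gives Lck a pair of windows, and the other (chr4:129558323-129558622, minus strand) holds an E-box and no RUNX match. Each sequence, from RefSeq on GRCm38.p6, runs 5′ to 3′ on the strand of its gene, from 250 bases before the RefSeq start to 50 bases after it. Capitals mark letters that match any of 8 searched motifs on either strand. 
Cd3g, chr9:44980382-44980681, minus strand: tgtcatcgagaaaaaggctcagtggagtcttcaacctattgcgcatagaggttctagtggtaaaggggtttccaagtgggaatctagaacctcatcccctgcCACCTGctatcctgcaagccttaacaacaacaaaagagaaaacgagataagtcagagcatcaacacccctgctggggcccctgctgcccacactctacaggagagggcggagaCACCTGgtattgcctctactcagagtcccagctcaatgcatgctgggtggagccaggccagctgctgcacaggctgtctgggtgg
Cd3d, chr9:44981536-44981835, plus strand: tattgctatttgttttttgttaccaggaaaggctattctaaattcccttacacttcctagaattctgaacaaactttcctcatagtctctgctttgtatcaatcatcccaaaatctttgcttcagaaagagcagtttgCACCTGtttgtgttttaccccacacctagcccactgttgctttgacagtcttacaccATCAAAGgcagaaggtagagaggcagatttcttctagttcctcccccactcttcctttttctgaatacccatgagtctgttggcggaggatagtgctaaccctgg
Lck, chr4:129573592-129573891, minus strand: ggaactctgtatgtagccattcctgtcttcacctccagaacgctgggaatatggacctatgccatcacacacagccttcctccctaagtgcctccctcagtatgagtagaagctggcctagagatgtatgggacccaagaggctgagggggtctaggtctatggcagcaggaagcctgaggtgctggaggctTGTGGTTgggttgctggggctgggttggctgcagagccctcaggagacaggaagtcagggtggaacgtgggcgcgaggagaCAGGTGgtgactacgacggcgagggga
The capitals are 2 E-box matches (CACCTG) in Cd3g, an E-box and a TCF/LEF match (ATCAAAG) in Cd3d, and a RUNX match (TGTGGTT) 58 bases before the start with an E-box after it in Lck. A match describes letters in the window and is no evidence that a factor binds there.

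The kinases and adaptors that carry the receptor's signal followed the receptor chains. Of 23 genes tested, 18 were called higher in T cells and 0 in microglia, with a median log2 fold change of 7.53 (7.05 at bounds). All T cell libraries lay above all microglia libraries in 22 of them, and in 2398 of all 13000 genes tested. Lck was at 1375, 1373 and 1249 CPM in T cells and 0, 0 and 5.32 in microglia (adjusted p = 0.00231). Its microglia counts came from microglia 3 only, and its log2 fold change of 9.56 ± 1.46 was 16.87 without that library, where the prior count of the fit sets it. Cd2, an adhesion receptor of T cells, was at 973, 1201 and 691 CPM in T cells and 0, 3.76 and 0 in microglia, with a log2 fold change of 9.55 ± 1.45 that became 16.38 without microglia 2. Lat, the scaffold on which the signal is assembled, was at 596, 589 and 442 CPM against 0.404, 4.94 and 1.36. Its log2 fold change was 7.91 ± 0.81 (adjusted p = 0.000257) and 9.25 without microglia 2.

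Skap1, an adaptor that couples the receptor to integrins, was at 548, 701 and 579 CPM in T cells and 0, 3.26 and 5.94 in microglia, a log2 fold change of 7.63 ± 1.06, or 8.53 without microglia 3. Cd6, Cd28 and Sh2d1a had no count in microglia. Cd6, a co-receptor that binds a ligand on other cells, was at 468, 505 and 300.2 CPM in T cells, at least 1396-fold above the microglia floor. Cd28, the co-stimulatory receptor, was at 414, 391 and 455 CPM, at least 1380.5-fold above it. Sh2d1a, which signals below SLAM family receptors, was at 252, 276 and 251 CPM, at least 854-fold above it. Lcp2, an adaptor that macrophages use as well, did not pass the threshold at 405, 394 and 419 CPM in T cells and 228, 376 and 199 in microglia (adjusted p = 0.228). Bcl10, which links receptors of both cell types to NF-kB, lay higher in every microglia library, at 188, 107 and 128 CPM against 64.0, 66.1 and 62.6, and missed it too (adjusted p = 0.06). The call of Cd5 was lost without microglia 1, microglia 3 or any 1 T cell library, and the other 17 calls held without each library. With microglia 2 alone, 17 members were called.

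**Figure D3:**
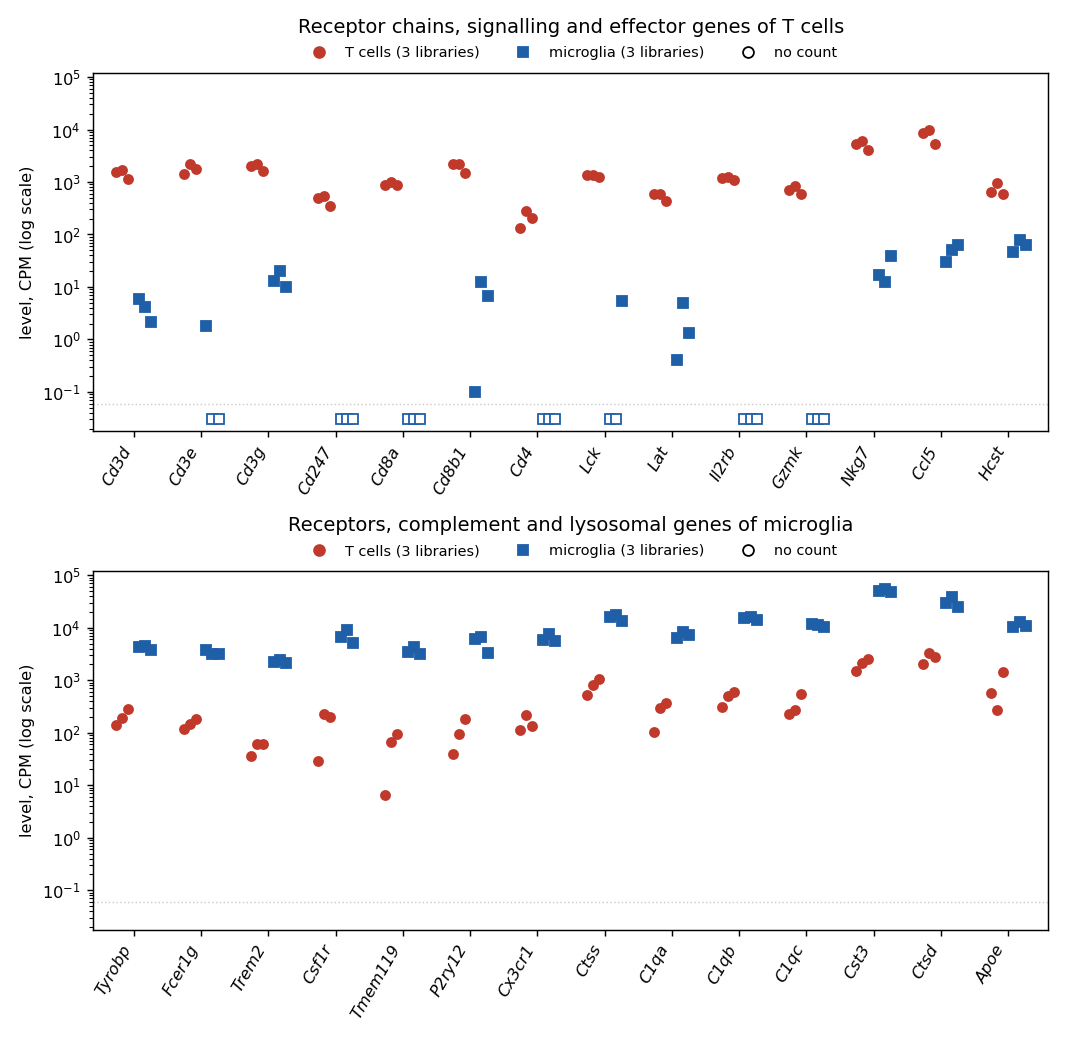
Level of 14 T cell genes (top) and 14 microglia genes (bottom) in each of 3 T cell libraries (red circles) and 3 microglia libraries (blue squares), in CPM on a log scale, with open symbols for libraries without a count. All 28 genes separate the 2 populations, and T cell libraries hold some counts of each microglia gene shown.

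Cytotoxic effector genes were higher in T cells. Of 14 tested, 10 were called higher in T cells, where 5.91% of all tested genes were, and 0 in microglia. The list had a median log2 fold change of 6.45. Ccl5, a chemokine that effector T cells store, had the highest T cell CPM of all called genes, not corrected for length, at 8515, 9812 and 5206 CPM in T cells and 30.5, 51.7 and 62.1 in microglia, a log2 fold change of 7.35 ± 0.43 (adjusted p = 4.17e-05). Nkg7, a protein of cytotoxic granules, was at 5224, 6090.4 and 3986 CPM and 16.8, 12.6 and 38.2, a log2 fold change of 7.82 ± 0.59 that became 8.43 without microglia 3. No library of either gene came near those of the other population.

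Gzmk, a granzyme known from memory CD8+ cells of aged mice, was at 696, 841 and 598 CPM in T cells with no count in microglia, at least 2339.8-fold. Ctsw, a cathepsin of cytotoxic cells, was at 1024, 1044 and 819 CPM in T cells and 0, 6.52 and 11.6 in microglia (adjusted p = 0.00309), a log2 fold change of 7.32 ± 1.18, or 8.19 without microglia 3 and 6.73 without microglia 1. Srgn, the proteoglycan that packs granules in many blood cells, did not pass at 1285, 1494 and 1172 CPM against 874, 886 and 515 (adjusted p = 0.131). Klrk1, an activating receptor of killer cells, also missed the threshold at 187, 270.1 and 144 CPM against 0, 0 and 6.46 (adjusted p = 0.0545). The calls of Gzma, Gzmb, Prf1 and Ifng were each lost without 1 or more single libraries, and Gzma was at 48.5, 633 and 102 CPM in T cells, with T cells 2 far above the others. The other 6 calls held without each library, and 8 members were called without microglia 1 and 3.

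Most listed transcription factors of lymphocytes were called higher in T cells, although some of these, such as Id2 and Ets1, were counted in every microglia library too. Of 17 tested, 14 were called higher in T cells and 0 in microglia, with a median log2 fold change of 6.39. Id2, which restrains E proteins in effector cells, was at 2109, 1991 and 1616 CPM in T cells and 438, 401 and 479 in microglia, a log2 fold change of 2.12 ± 0.26 (adjusted p = 0.000674). Ets1, a factor of the ETS family, was at 299.9, 325 and 578 CPM and 53.2, 33 and 101, a log2 fold change of 2.68 ± 0.47 (adjusted p = 0.00503). Tox, a factor of chronically stimulated CD8+ cells, was at 178, 202 and 261 CPM in T cells and 0, 5.63 and 0.104 in microglia, and its log2 fold change of 6.79 ± 1.46 became 11.73 without microglia 2. Stat4, which relays interleukin-12, was at 166, 248 and 188 CPM against 0, 0.0988 and 1.15, with a log2 fold change of 8.90 ± 0.97 and 11.68 without microglia 3. The groups did not overlap in these 4 genes. In Ikzf1, needed for lymphoid and myeloid cells, the libraries did overlap, at 101, 120.1 and 154 CPM and 131, 124 and 117 (adjusted p = 0.993). Klf2, a factor of circulating T cells, also overlapped, at 159.7, 91.5 and 72.5 CPM in T cells and 169, 90.4 and 165 in microglia (adjusted p = 0.628). The calls of Tbx21 and Satb1 were lost without at least 1 single library, and 12 members were called without microglia 1 and 3.

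Of 14 genes for egress, homing and tissue residency, 7 were called higher in T cells, where 5.91% of all tested genes were, and 0 in microglia, with a median log2 fold change of 4.11. In 13 of the 14 every T cell library lay above every microglia library, as in 2398 of all 13000 genes tested. Cxcr6, a chemokine receptor of resident T cells, was at 1428, 1702 and 1184 CPM in T cells and 17.2, 8.89 and 24.7 in microglia, a log2 fold change of 6.41 ± 0.44 (adjusted p = 5.32e-05). Itgb7, an integrin chain that pairs with Itga4 or Itgae, was at 628, 364 and 820.2 CPM against 48.0, 40.2 and 6.05, a log2 fold change of 4.26 ± 0.69 (adjusted p = 0.00312). Itgal, the alpha chain of the integrin LFA-1, was at 374, 693 and 633 CPM against 46.4, 7.91 and 13.6. Its log2 fold change was 4.65 ± 0.76, and 5.72 without microglia 1. All 3 genes were higher in every T cell library than in any microglia library. Rgs1, a regulator of chemokine receptors that is also known as a residency gene, was the exception and overlapped at 657, 440.5 and 448 CPM in T cells and 481, 523 and 426 in microglia (adjusted p = 0.845). Ccr7, which guides T cells to lymph nodes, was at 303, 260.1 and 224 CPM in T cells and 29.3, 6.23 and 0 in microglia and was not called (adjusted p = 0.0893). The calls of S1pr5 and Cd69 were lost without at least 1 single library, and 7 members were called without microglia 1 and 3.

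Co-stimulatory and inhibitory receptors went in both directions. Of 15 tested, 12 were called higher in T cells and 2 in microglia. Pdcd1, the inhibitory receptor PD-1, was at 320.3, 251 and 539 CPM in T cells and 39.9, 119 and 42.9 in microglia, a log2 fold change of 2.46 ± 0.49 (adjusted p = 0.00999). It was 3.16 without microglia 2, the microglia library with the most Pdcd1, and without microglia 1 and 3 the call was lost. Tnfrsf18, a co-stimulatory receptor of the TNF family, was at 289, 264 and 299.6 CPM against 12.9, 8.79 and 0, with an adjusted p of 0.0124. Havcr2, which encodes the receptor TIM-3, was higher in microglia, at 542, 489.8 and 232 CPM against 18.1, 17.7 and 10.1 in T cells, for a log2 fold change of -4.78 ± 1.14 (adjusted p = 0.0227). Lag3, an inhibitory receptor that binds MHC class II, was at 42.0, 93.6 and 58.4 CPM in microglia and 3.04, 6.82 and 12.9 in T cells, for a log2 fold change of -3.09 ± 0.81 (adjusted p = 0.0345). Lag3 and Havcr2 thus had no overlap between populations in the direction opposite to that of the other 12. Neither call was stable: that of Havcr2 was lost without microglia 1, microglia 2 or any 1 T cell library, and that of Lag3 without any 1 microglia library or T cells 1 or 2. Cd160 was not called at 119, 185 and 145 CPM in T cells and 0, 7.61 and 7.82 in microglia (adjusted p = 0.0819). Without microglia 1 and 3, 9 members were called higher in T cells and 0 in microglia.

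The common gamma chain is shared by the receptors through which interleukin-2, -7 and -15 act. Of 10 genes of these receptors and their JAK kinases, 5 were called higher in T cells and 0 in microglia. Il2rb, the shared beta chain of the receptors for interleukin-2 and interleukin-15, was at 1199, 1243 and 1102 CPM in T cells and had no count in microglia, at least 3885-fold. Il2rg, the common gamma chain itself, was at 1668, 1963 and 1435 CPM in T cells and 108, 115 and 87.4 in microglia, a log2 fold change of 4.03 ± 0.26 (adjusted p = 5.32e-05). Il7r, the receptor chain for interleukin-7, was at 596, 490.1 and 611 CPM against 24.3, 17.2 and 36.2, a log2 fold change of 4.45 ± 0.35 (adjusted p = 7.56e-05). These 3 chains separated the populations fully. Jak1, the kinase bound to most of these receptors, was at 804, 435 and 846 CPM against 238, 237 and 296, a log2 fold change of 1.44 ± 0.30 whose call was lost without microglia 1 or microglia 2. Il4ra was higher in every microglia library, at 280.1, 225 and 202 CPM against 94.5, 106 and 62.0, but was not called (adjusted p = 0.0909), and Il21r overlapped at 135, 242 and 178 CPM in T cells and 238, 216 and 155 in microglia (adjusted p = 0.866). With microglia 2 alone, 4 members were called.

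On the microglia side, all 18 homeostatic genes tested were called higher in microglia, where 7.13% of all tested genes were, with a median log2 fold change of -5.48. Cx3cr1, the receptor for the neuronal chemokine fractalkine, was at 5937, 7557 and 5712 CPM in microglia and 113, 214 and 135 in T cells, for a log2 fold change of -5.38 ± 0.36 (adjusted p = 5.32e-05). Microglia 3 was the lowest of its population, and still far above the highest T cell library. The log2 fold change was -5.53 ± 0.73 for Csf1r (adjusted p = 0.000982) and -6.03 ± 0.84 for Tmem119 (adjusted p = 0.00135), and T cells 1 held far fewer counts of both than T cells 2 and 3. Selplg, the ligand of selectins, was at 6518, 6929 and 5155 CPM in microglia and 1985, 2205 and 1653 in T cells. The log2 fold change of -1.67 ± 0.23 (adjusted p = 0.00139) was the nearest to 0 on the list. The call of Gpr34 was lost without T cells 3, and the other 17 held without each library. With microglia 2 alone, 15 were called.

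Microglia also held the transcription factors of macrophages. Of 13 tested, 9 were called higher in microglia and 0 in T cells, with a median log2 fold change of -4.92. Irf8, which microglia need to develop, was at 608, 710.0 and 644 CPM in microglia and 28.8, 30.9 and 14.8 in T cells, for a log2 fold change of -4.72 ± 0.40 (adjusted p = 0.000104). Irf5, which acts below Toll-like receptors, was at 302, 359.6 and 388 CPM against 9.55, 12.2 and 12.7, a log2 fold change of -4.92 ± 0.37 (adjusted p = 6.91e-05). Spi1, which encodes PU.1, was at 637, 502 and 394 CPM against 6.94, 3.38 and 22.6, a log2 fold change of -5.54 ± 0.74 (adjusted p = 0.00108) that became -6.57 without T cells 3. Mef2c, a factor of microglia and neurons, was at 532, 568 and 618 CPM against 2.82, 33.1 and 12.1. The log2 fold change was -5.15 ± 0.83, and -6.36 without T cells 2. None of these 4 genes overlapped. Egr2 was not called at 35.1, 40.1 and 35.5 CPM in microglia and 3.91, 5.24 and 9.56 in T cells (adjusted p = 0.225), and Smad3, which relays TGF-beta, overlapped at 15.9, 38.4 and 39.8 in microglia and 21.7, 41.6 and 24.1 in T cells (adjusted p = 0.953). The calls of Maf and Mef2a were lost without single libraries of either population, and 5 members were called without microglia 1 and 3.

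The adaptor chains on which each population's activating receptors signal differed in a crossed pattern. Tyrobp, the ITAM adaptor of Trem2 and related receptors, was at 4248, 4554 and 3696 CPM in microglia and 139, 190.0 and 285 in T cells, for a log2 fold change of -4.35 ± 0.42 (adjusted p = 0.000183). Fcer1g, the ITAM chain of Fc receptors, was at 3769, 3156 and 3229.6 CPM against 120.0, 149 and 186, a log2 fold change of -4.48 ± 0.31 (adjusted p = 5.32e-05). Hcst, which encodes DAP10, an adaptor without an ITAM used by Klrk1, was at 631, 948 and 585 CPM in T cells and 45.4, 78.1 and 63.8 in microglia, a log2 fold change of 3.53 ± 0.37 (adjusted p = 0.000317). Tyrobp and Hcst thus stood in opposite directions with no overlap, although they are neighbours on mouse chromosome 7 (chr7:30413760-30417585, plus strand, and chr7:30417712-30419854, minus strand), with 126 bases between the annotated genes. Their ends face each other, and the counting of reads by strand is not given in the sources used here. Per kilobase of exon, Tyrobp was at 6246 ± 651 CPM and Fcer1g at 3873 ± 383 in microglia, and Cd3g was at 599.6 ± 86.9 in T cells (mean ± SD, n = 3).

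Of the 14 adaptors, receptors and kinases of this myeloid group, 12 were called higher in microglia and Hcst alone in T cells, with a median log2 fold change of -4.34. Fcgr3, an activating receptor for IgG, was at 2985, 3032 and 2309 CPM in microglia and 84.7, 87.5 and 151 in T cells, for a log2 fold change of -4.69 ± 0.36 (adjusted p = 7.32e-05). Trem2, the lipid receptor that signals through Tyrobp, was at 2254, 2447 and 2100.5 CPM against 36.0, 60.2 and 60.3, a log2 fold change of -5.44 ± 0.38 (adjusted p = 5.32e-05). Syk, the kinase that binds their ITAMs, was higher in each microglia library, at 103, 93.6 and 98.6 CPM against 8.14, 7.17 and 7.27, and was not called (adjusted p = 0.112). One ILC2 library that shares the fit held no count of Syk and the other 46.7 CPM. The call of Plcg2 was lost without any 1 microglia library, T cells 2 or either ILC2 library, and the other 11 held without each library. Without microglia 1 and 3, 9 were called.

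Complement genes were higher in microglia. C1qa, C1qb and C1qc encode the 3 chains of C1q, the molecule that tags synapses and debris for uptake. C1qb was at 15411, 15896 and 14086 CPM in microglia and 316, 505 and 599 in T cells, for a log2 fold change of -5.0 ± 0.35 (adjusted p = 6.07e-05). C1qc was at 11729.7, 11191 and 10404 CPM against 231, 274 and 555, a log2 fold change of -4.97 ± 0.42 (adjusted p = 0.000104). C1qa was at 6499.6, 8288 and 7186 CPM against 102, 301 and 362, a log2 fold change of -4.84 ± 0.49 (adjusted p = 0.000232). The 3 chains thus differed by close to the same factor, and the difference between any 2 of their log2 fold changes is less than the standard error of either.

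C1qb (chr4:136880129-136886187) and C1qc (chr4:136889804-136893065) lie on the minus strand of mouse chromosome 4 in GRCm38, with 3616 bases between them. Their windows and that of the cathepsin gene Ctss are shown because all 3 are among the 10 called genes with the highest microglia levels and 2 of them hold the PU.1 letters GAGGAAGT. The layout and the capitals are as for the T cell genes above.
C1qb, chr4:136886151-136886450, minus strand: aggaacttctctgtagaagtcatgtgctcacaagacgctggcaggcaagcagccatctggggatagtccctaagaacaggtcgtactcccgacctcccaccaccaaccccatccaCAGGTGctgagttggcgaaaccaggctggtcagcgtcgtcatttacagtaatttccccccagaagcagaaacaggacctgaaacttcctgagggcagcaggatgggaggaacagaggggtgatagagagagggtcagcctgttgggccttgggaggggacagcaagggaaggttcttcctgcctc
C1qc, chr4:136892865-136893164, minus strand: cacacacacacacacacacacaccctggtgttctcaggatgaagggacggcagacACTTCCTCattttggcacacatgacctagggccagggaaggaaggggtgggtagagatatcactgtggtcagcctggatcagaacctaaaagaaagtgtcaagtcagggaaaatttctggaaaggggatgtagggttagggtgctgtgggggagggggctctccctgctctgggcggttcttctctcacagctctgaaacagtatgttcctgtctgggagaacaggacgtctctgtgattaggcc
Ctss, chr3:95526536-95526835, plus strand: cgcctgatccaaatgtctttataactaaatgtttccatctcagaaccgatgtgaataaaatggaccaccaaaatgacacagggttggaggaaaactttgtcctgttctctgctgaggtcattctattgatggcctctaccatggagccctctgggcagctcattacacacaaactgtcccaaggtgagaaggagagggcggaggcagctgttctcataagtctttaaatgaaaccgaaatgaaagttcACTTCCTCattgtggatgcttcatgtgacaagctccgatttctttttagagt
The C1qc match begins 195 bases before the RefSeq start and the Ctss match 2 bases before it, both on the opposite strand (ACTTCCTC), and the only capitals in C1qb are an E-box.

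Of 12 complement genes tested, 9 were called higher in microglia and 0 in T cells, with a median log2 fold change of -4.91. Itgam, a chain of complement receptor 3, was at 750.4, 925 and 683 CPM in microglia and 10.4, 22.5 and 5.98 in T cells, for a log2 fold change of -5.91 ± 0.60 (adjusted p = 0.000242) that became -6.66 without T cells 2. Its partner chain Itgb2, which also pairs with Itgal in T cells, overlapped at 801, 899 and 567 CPM in microglia and 671, 1155 and 719.9 in T cells (adjusted p = 0.807). Itgax was not called at 17.7, 122 and 77.3 CPM in microglia and 0.326, 0 and 9.56 in T cells (adjusted p = 0.147). The calls of C3 and Cfp were lost without single libraries of both populations, and 7 members were called without microglia 1 and 3.

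Lysosomal genes were higher in microglia in 18 of 19 genes tested, with a median log2 fold change of -3.58, and all 18 calls held without each library in turn. Ctsd, an aspartyl protease of lysosomes, was at 29065, 38056 and 25348 CPM in microglia and 2086, 3284 and 2723 in T cells, for a log2 fold change of -3.51 ± 0.28 (adjusted p = 8e-05). Ctss, which trims peptides for MHC class II, was at 16164, 17771 and 13568 CPM against 518, 827 and 1037, a log2 fold change of -4.32 ± 0.32 (adjusted p = 6.91e-05). Ctsb, a cysteine protease, was at 7844, 9379.5 and 6357 CPM against 638, 978 and 961, a log2 fold change of -3.19 ± 0.28 (adjusted p = 0.000121). No library overlapped in these 3 proteases. Cst3, the secreted inhibitor of such proteases, had the highest microglia CPM of all called genes, not corrected for length, at 50616, 55932 and 48475, against 1489.6, 2109 and 2594 in T cells, for a log2 fold change of -4.65 ± 0.34 (adjusted p = 6.29e-05). Laptm5, a lysosomal membrane protein of all blood cells, was the member that was not called, at 5869, 6088 and 4879.9 CPM in microglia and 3012, 4042 and 3263 in T cells (adjusted p = 0.0672). With microglia 2 alone, 16 were called.

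The disease-associated microglia list names genes that rise in microglia near plaques or damage. All these mice were aged and treated, so their level against T cells does not show such a state. Of 21 tested, 13 were called higher in microglia and 0 in T cells, with a median log2 fold change of -3.65. Apoe, the lipid carrier, was at 10517, 13009.9 and 10702 CPM in microglia and 560.0, 277 and 1412 in T cells, for a log2 fold change of -3.93 ± 0.55 (adjusted p = 0.00136), and -4.70 without T cells 3, the T cell library with the most Apoe. Fth1, a ferritin chain, was at 6168, 5665 and 5927 CPM against 2315, 2377 and 2406, a log2 fold change of -1.32 ± 0.23 (adjusted p = 0.00430), and was not called with scaling by library size only. Cst7, a cystatin of these microglia that cytotoxic lymphocytes also make, was higher in each T cell library, at 721, 535 and 542 CPM against 288, 442 and 265, and was not called (adjusted p = 0.101). Lgals3 was not called at 436, 316 and 319 CPM in microglia and 253, 256 and 143 in T cells (adjusted p = 0.326). Lpl, also on this list, lost its call without microglia 2 or T cells 2, and with microglia 2 alone 10 members were called, Fth1 not among them.

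Lipid handling genes had a median log2 fold change of -1.36 over 14 genes tested. Of these, 5 were called higher in microglia, where 7.13% of all tested genes were, and 0 in T cells. All 5 but Apoe lost their call without microglia 1 and 3. Npc2, which moves cholesterol out of lysosomes, was at 1136, 1059 and 929.7 CPM in microglia and 433, 403 and 383 in T cells, for a log2 fold change of -1.36 ± 0.26 (adjusted p = 0.00891). Lpl, a lipase, was at 258, 642 and 230.2 CPM against 0.543, 17.1 and 28.9. The log2 fold change of -4.60 ± 1.16 was -5.34 without T cells 3 and -3.97 without microglia 2, and its call was lost without microglia 2 or T cells 2. Abca1, a cholesterol exporter, was at 257, 262 and 229 CPM against 0.434, 0 and 18.4, and its call was lost without any 1 microglia library, T cells 1 or either ILC2 library. The log2 fold change was -5.31 ± 1.51, and -10.26 without T cells 3. Abcg1 and Soat1 were not called (adjusted p = 0.0863 and 0.0577).

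Of 13 genes for the uptake of dying cells, 6 were called higher in microglia and 0 in T cells. Over all tested genes the shares were 7.13% and 5.91%. In 10 every microglia library lay above every T cell library, as in 2436 of all 13000 genes tested, and 3 overlapped. The list had a median log2 fold change of -5.12 (-4.02 at bounds). Mertk, a receptor kinase for bridged phosphatidylserine, was at 232, 377 and 265 CPM in microglia and 0.434, 1.24 and 6.87 in T cells, for a log2 fold change of -6.68 ± 0.97 (adjusted p = 0.00244), or -8.31 without T cells 3. Pros1, a bridging ligand of Mertk, was at 562, 654 and 395 CPM against 27.8, 41.1 and 39.8, a log2 fold change of -3.89 ± 0.61 (adjusted p = 0.00260). Itgb5, a chain of a phagocytic integrin, was at 282, 237 and 316 CPM against 6.73, 3.38 and 2.09, a log2 fold change of -6.10 ± 0.52 (adjusted p = 0.000106). No T cell library reached any microglia library in these genes. Stab1, a scavenger receptor, was at 76.5, 209 and 229 CPM against 0, 4.34 and 3.39, a log2 fold change of -6.03 ± 1.13, or -6.74 without T cells 2. Lrp1 and Axl were higher in each microglia library and were not called, with Lrp1 at 184, 356 and 342 CPM against 0.109, 28.5 and 25.6 (adjusted p = 0.0592) and Axl at 250.1, 296 and 233 against 0, 23.9 and 38.0 (adjusted p = 0.0801). Mrc1 lost its call without microglia 1, and Gas6 without any 1 microglia library or T cells 1, with library size scaling and with no abundance trend. Without microglia 1 and 3, 5 members were called, Gas6 not among them.

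Of 16 Toll-like receptors and partners tested, 10 were called higher in microglia and 0 in T cells, with a median log2 fold change of -5.01 (-4.65 at bounds). Unc93b1, which carries nucleic acid receptors to endosomes, was at 2436, 2478 and 1723 CPM in microglia and 33.4, 134 and 78.8 in T cells, for a log2 fold change of -4.75 ± 0.52 (adjusted p = 0.000412), or -5.40 without T cells 2. Cd14, the co-receptor for lipopolysaccharide, was at 1022, 1055 and 789 CPM against 7.70, 13.9 and 15.2, a log2 fold change of -6.28 ± 0.50 (adjusted p = 7.79e-05). Tlr13, which senses bacterial ribosomal RNA in mice, was at 254, 382 and 151 CPM in microglia and had no count in T cells, at least 948-fold. Tlr7, which senses single-stranded RNA, was at 299, 324 and 268 CPM against 2.71, 3.52 and 8.57, a log2 fold change of -5.91 ± 0.88, or -6.50 without T cells 3. Tlr2 was at 328, 420.4 and 357 CPM against 0, 0 and 6.87, with all its T cell counts in T cells 3, and its log2 fold change of -7.35 ± 1.54 was -14.98 without that library, where the prior count sets it. Tlr3 was not called at 107, 58.9 and 31.0 CPM against 0, 19.2 and 0 (adjusted p = 0.278), and Irak4, an adaptor kinase of both cell types, overlapped at 25.2, 56.1 and 41.0 in microglia and 18.9, 46.5 and 20.8 in T cells (adjusted p = 0.625). Tlr1, Tlr4, Tlr9 and Myd88 lost their call without at least 1 single library, and 5 members were called without microglia 1 and 3.

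Of 8 purinergic genes, which serve signalling by extracellular nucleotides, 5 were called higher in microglia and Nt5e alone in T cells, and without microglia 1 and 3 the counts were 4 and 0. P2ry12, the ADP receptor with which microglia sense injury, was at 6070.1, 6741 and 3308 CPM in microglia and 38.6, 96.5 and 179.6 in T cells, for a log2 fold change of -5.68 ± 0.62 (adjusted p = 0.000373). P2ry13, a related ADP receptor, was at 1988, 2557 and 1298 CPM against 2.5, 11.8 and 2.69, a log2 fold change of -8.40 ± 0.77 (adjusted p = 0.000154), or -9.63 without T cells 2. P2ry6, the UDP receptor, was at 251, 352 and 314 CPM against 0, 7.51 and 0.299, a log2 fold change of -6.82 ± 1.39 that became -10.93 without T cells 2. Entpd1, the enzyme CD39 that breaks ATP down to AMP, was at 612, 792 and 649.6 CPM against 43.1, 70.5 and 92.8, a log2 fold change of -3.31 ± 0.38 (adjusted p = 0.000461). Nt5e, the enzyme CD73 that turns AMP into adenosine, was at 40.4, 81.9 and 79.7 CPM in T cells and had no count in microglia, at least 221-fold (adjusted p = 0.00476), and its call was lost without microglia 1 and 3. The 2 enzymes thus stood in opposite directions with no overlap, while P2rx7 overlapped at 99.2, 244 and 129 CPM in microglia and 26.6, 56.7 and 108 in T cells (adjusted p = 0.158) and Adora3 was not called (adjusted p = 0.0973).

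**Figure D4:**
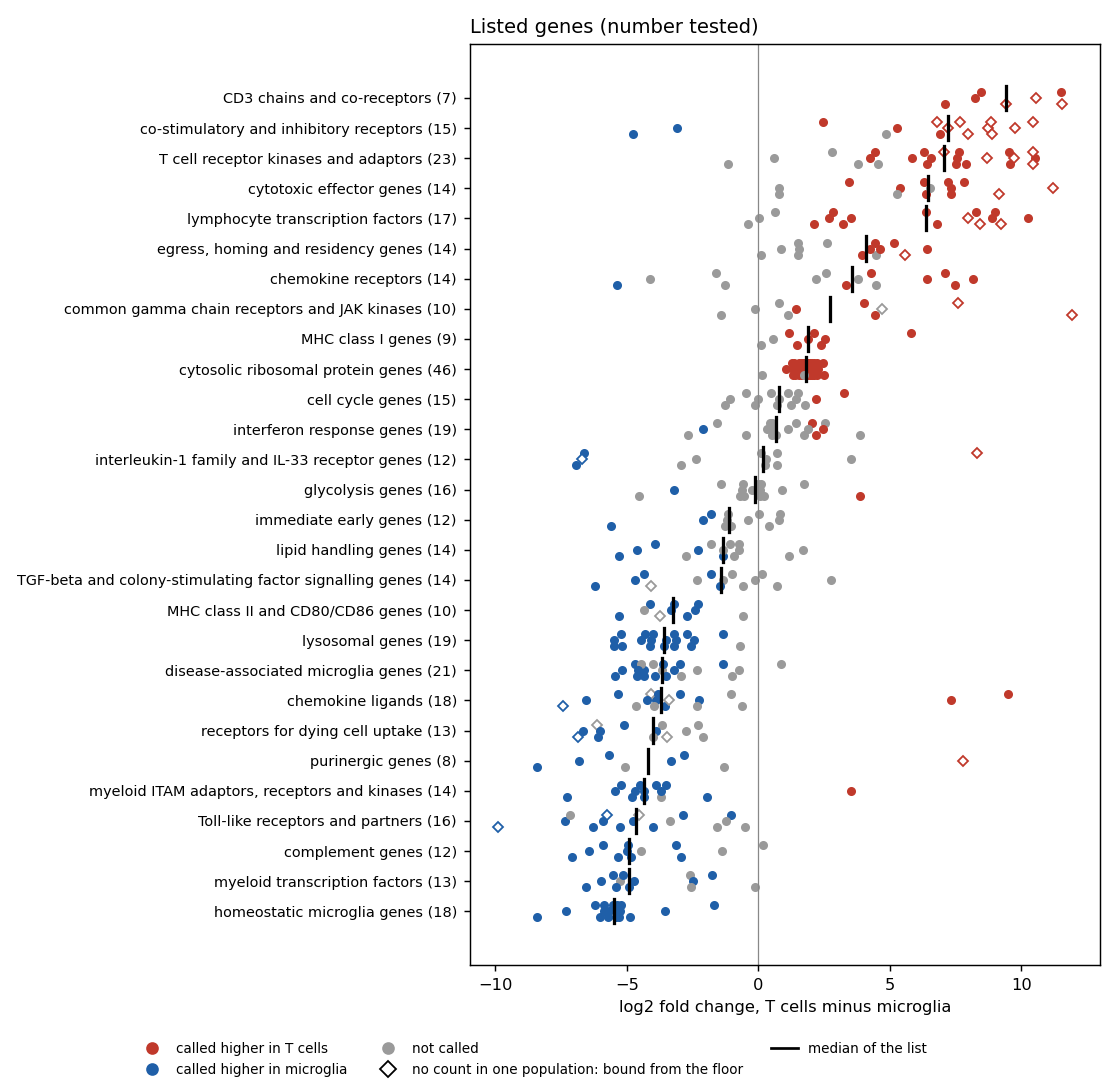
Log2 fold change, T cells minus microglia, of the tested genes of each list of T cell, microglia and shared genes (marker lists of other cells are not drawn), ordered by list median (black bars), with genes called higher in T cells in red, in microglia in blue and not called in grey. Open diamonds are genes without a count in one population, drawn at the bound a floor of 3 counts per library gives, and the medians of the lists drawn run from 9.42 for CD3 chains to -5.48 for homeostatic microglia genes.

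Antigen presentation split by class. Of 9 MHC class I genes tested, 7 were called higher in T cells and 0 in microglia, with a median log2 fold change of 1.91. H2-K1, a classical class I heavy chain, was at 6977, 6999 and 5545 CPM in T cells and 1293, 1244 and 1149 in microglia, a log2 fold change of 2.40 ± 0.25 (adjusted p = 0.000272). H2-D1, another such chain, was at 2611, 2595 and 2238 CPM against 964, 931 and 774, a log2 fold change of 1.48 ± 0.23 (adjusted p = 0.00238). The immunoproteasome subunit Psmb8 was at 1997, 1876 and 1467 CPM against 544, 352 and 319.9, a log2 fold change of 2.13 ± 0.30 (adjusted p = 0.00147). Its partner Psmb9 was at 563, 648 and 464 CPM against 161, 135 and 150.2, a log2 fold change of 1.91 ± 0.29 (adjusted p = 0.00231). B2m, the light chain of every class I molecule, was higher in each T cell library, at 15131, 15315 and 12566 CPM against 10314, 10467 and 8113, but was not called (adjusted p = 0.176), and Tapbp overlapped (adjusted p = 0.892). The H2 heavy chains are close paralogs, and how reads shared between them were counted is not given in the sources used here. The calls of Tap2 and Nlrc5 were lost without single libraries of both populations, and 4 members were called without microglia 1 and 3, H2-K1 among them.

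Of 10 MHC class II and CD80/CD86 genes, 7 were called higher in microglia and 0 in T cells, with a median log2 fold change of -3.25. Cd74, the invariant chain, was at 1854, 1359 and 929 CPM in microglia and 132, 458 and 188 in T cells, for a log2 fold change of -2.41 ± 0.49 (adjusted p = 0.0111), or -3.20 without T cells 2. H2-Ab1, a class II beta chain, was at 959.9, 630.5 and 457 CPM against 34.8, 147 and 23.3, a log2 fold change of -3.32 ± 0.66, or -4.64 without T cells 2. H2-Aa, its alpha chain, was at 815, 457 and 329 CPM against 47.9, 151 and 43.2, a log2 fold change of -2.72 ± 0.54, or -3.64 without T cells 2. T cells 2 was the T cell library with the most class II transcripts, and the microglia libraries varied among themselves, with microglia 1 highest in all 3. H2-DMa, which loads peptides on class II, varied less, at 741, 741 and 652 CPM against 54.9, 102 and 77.1, a log2 fold change of -3.19 ± 0.32 (adjusted p = 0.000217). Cd80 and Cd40 were not called (adjusted p = 0.167 and 0.225), and Cd40 was counted in microglia 2 only. With microglia 2 alone, 3 members were called, and Cd74, H2-Aa and H2-Ab1 were not among them (adjusted p = 0.0774, 0.0776 and 0.0766).

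**Figure D5:**
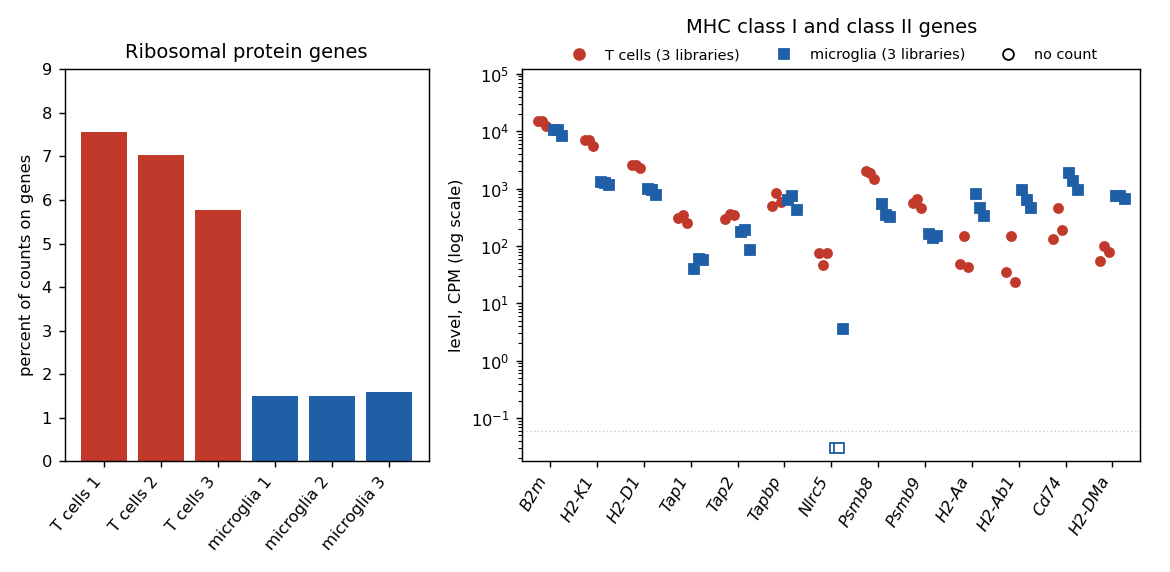
Share of counts on genes that fell on ribosomal protein genes in each library, in percent (left, bars from 0), and levels of MHC class I and class II genes in CPM on a log scale (right; T cells red circles, microglia blue squares, open symbols no count). Shares are 5.76% to 7.56% in T cells and 1.49% to 1.6% in microglia. Every class I gene but Tapbp, which overlaps, lies higher in all T cell libraries, and the class II genes drawn lie higher in all microglia libraries.

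Chemokine receptors and ligands also divided. Of 14 receptors tested, 6 were called higher in T cells and Cx3cr1 alone in microglia, against 5.91% and 7.13% of all tested genes. Cxcr3, which draws effector T cells to interferon-induced ligands, was at 669.8, 980.1 and 757 CPM in T cells and 0, 0 and 8.44 in microglia, with all its microglia counts in microglia 3 and a log2 fold change of 8.16 ± 1.54, or 16.14 without that library, where the prior count sets it. Ccr8, a receptor of resident and regulatory T cells, was at 60.5, 64.2 and 76.2 CPM against 0, 0.198 and 1.25, a log2 fold change of 7.10 ± 0.81, or 9.24 without microglia 3. Cxcr5 lost its call without microglia 3, T cells 1 or T cells 2.

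Of 18 chemokine ligands, 9 were called higher in microglia and 2, Ccl5 and Xcl1, in T cells, against 7.13% and 5.91% of all tested genes. The list had a median log2 fold change of -3.85 (-3.69 at bounds). Ccl3, a chemokine of activated macrophages, was at 1742, 1649 and 1392 CPM in microglia and 145, 93.8 and 88.1 in T cells, for a log2 fold change of -3.87 ± 0.38 (adjusted p = 0.000223). Ccl4, its close paralog, was at 3544, 3078 and 2620.1 CPM against 849.8, 602 and 483, a log2 fold change of -2.26 ± 0.53 (adjusted p = 0.0214) whose call was lost without microglia 1, microglia 2, T cells 2 or T cells 3. Ccl6 was at 2464, 3179.7 and 659.8 CPM against 101, 405 and 299, a log2 fold change of -2.97 ± 0.65 (adjusted p = 0.0149). Xcl1, a chemokine of cytotoxic T cells, was at 457, 413 and 242 CPM in T cells and 0, 1.48 and 0 in microglia, called without each library and without microglia 1 and 3. Ccl2 lost its call without any 1 microglia library or T cells 1 or 3, and with microglia 2 alone 6 ligands were called higher in microglia. Cxcl10 and Pf4 were not called (adjusted p = 0.601 and 0.135).

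The receptor for the injected cytokine was low in both populations. Il1rl1, which encodes the IL-33 receptor ST2, was at 38.6, 6.82 and 32.2 CPM in T cells and 18.8, 33.6 and 10.3 in microglia and overlapped (log2 fold change 0.30 ± 0.62, adjusted p = 0.825). A list of 12 genes held the interleukin-1 family, its receptors and genes that act on its release, Nlrp3 and Casp1 among them. Of these 12, 1 was called higher in T cells and 3 in microglia. Over all tested genes the shares were 5.91% and 7.13%, and the list had a median log2 fold change of 0.18. Il18r1, a chain of the interleukin-18 receptor, was at 168, 54.4 and 70.4 CPM in T cells with no count in microglia, at least 321-fold (adjusted p = 0.000578). Il1a was at 342, 417 and 251 CPM in microglia and 0, 7.93 and 0 in T cells, with its T cell counts in T cells 2 only and a log2 fold change of -6.93 ± 1.5, or -14.84 without that library and -6.32 without T cells 3. Il1b was at 308, 122 and 192 CPM against 0, 0 and 6.37, with its T cell counts in T cells 3 only. Its call (log2 fold change -6.62 ± 1.84, -14.15 without T cells 3) was lost without any 1 microglia library or T cells 1 or 2. Nlrp3, a sensor that leads to the release of mature interleukin-1, was at 33.8, 43.3 and 10.7 CPM in microglia with no count in T cells, at least 106-fold. Casp1 and Il18rap were not called (adjusted p = 0.342 and 0.0588). Without microglia 1 and 3, Nlrp3 alone was called higher in microglia, and Il18r1 and Il18rap in T cells.

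Interferon response genes were called in both directions. Of 19 tested, 3 were called higher in T cells, where 5.91% of all tested genes were, and 1 in microglia, against 7.13%. The list leaned to T cells, with a median log2 fold change of 0.66. In 9 genes every T cell library lay above every microglia library, and in 3 the reverse held. Of all 13000 genes tested, 2398 and 2436 stood so. Among the T cell calls, Ifi27l2a was at 892, 930.1 and 789 CPM in T cells and 208, 182 and 175 in microglia, a log2 fold change of 2.21 ± 0.28 (adjusted p = 0.000773), and Zbp1, a sensor of nucleic acids, at 127, 158 and 133 against 35.2, 17.9 and 22.1, a log2 fold change of 2.47 ± 0.39 (adjusted p = 0.00277). Ifitm3 was higher in microglia, at 540.1, 265 and 504 CPM against 95.9, 102 and 104, a log2 fold change of -2.12 ± 0.34 (adjusted p = 0.00296). The other 15 were not called, among them Bst2 (adjusted p = 0.364) and Irf7 (adjusted p = 0.0528). The call of Ifitm3 was lost without microglia 1 and 3.

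Immediate early genes, which enzymatic dissociation of tissue is known to induce, were called higher in microglia in 3 of 12 genes and in T cells in 0. Of all tested genes, 7.13% and 5.91% were called in these directions. Atf3 was at 893, 588 and 609 CPM in microglia and 4.56, 31.1 and 7.17 in T cells, for a log2 fold change of -5.60 ± 0.84 (adjusted p = 0.00209), or -6.98 without T cells 2. Egr1 was at 452, 234 and 545 CPM against 99.0, 59.3 and 128, a log2 fold change of -2.10 ± 0.40 (adjusted p = 0.00779), and Ier3 at 384, 304 and 258 against 164, 48.9 and 59.4, a log2 fold change of -1.80 ± 0.46, or -2.54 without T cells 1, whose call was lost without each of the other 5 T cell and microglia libraries. Atf3 alone was called without microglia 1 and 3. Fos and Junb were high in both, with Fos at 3809, 2987 and 2196 CPM in microglia and 1797, 1091 and 1039.6 in T cells (adjusted p = 0.0627) and Junb at 1644, 1247 and 959 in microglia and 3115, 1588 and 2005 in T cells (adjusted p = 0.199).

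Few cell cycle and glycolysis genes were called. Of all genes tested, 5.91% were called higher in T cells and 7.13% in microglia. The cell cycle list had a median log2 fold change of 0.77. In it, 6 of 15 genes stood higher in every T cell library and 0 in every microglia library. The glycolysis list had a median of -0.13, with 3 and 4 of 16 genes in that order. Of all 13000 genes tested, 2398 and 2436 stood so. Of 15 cell cycle genes, 2 were called higher in T cells and 0 in microglia: Mcm2, a subunit of the replicative helicase, at 100.3, 66.1 and 96.7 CPM in T cells and 2.22, 15.3 and 10.1 in microglia (adjusted p = 0.0128), and Mcm6 at 96.6, 112 and 112 against 11.3, 9.88 and 48.2 (adjusted p = 0.0361). The Mcm2 call was lost without microglia 1 and 3, and Mcm5 was then called higher in T cells. The Mcm6 call was lost without microglia 1 or 2, any 1 T cell library or ILC2 2, and its log2 fold change of 2.21 ± 0.59 was 3.33 without microglia 3. Pcna and Mcm4 were not called (adjusted p = 0.340 and 0.0874). Of 16 glycolysis genes, 1 was called in each direction. Pfkp, the platelet-type phosphofructokinase, was at 286, 244 and 225 CPM in T cells and 2.12, 14.1 and 35.3 in microglia, a log2 fold change of 3.87 ± 0.79, or 4.95 without microglia 3. Hk2, an inducible hexokinase, was at 158, 152 and 266 CPM in microglia and 14.6, 25.6 and 21.9 in T cells, for a log2 fold change of -3.21 ± 0.40 (adjusted p = 0.000746). Aldoa overlapped at 974, 1205 and 1129 CPM in T cells and 1045, 1124 and 1019.9 in microglia (adjusted p = 0.924), and Ldha, though higher in each T cell library at 1302, 1125 and 1141 against 690.4, 546 and 660.0 and at an adjusted p of 0.0381, differed by less than 2-fold.

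A list of genes for TGF-beta and colony-stimulating factor signalling, both required by microglia, also held the interleukin-10 receptor chains Il10ra and Il10rb. Of its 14 genes, 5 were called higher in microglia, where 7.13% of all tested genes were, and 0 in T cells. Tgfbr1, a receptor of TGF-beta, was at 1027, 1413 and 967 CPM in microglia and 6.51, 20.3 and 19.3 in T cells, for a log2 fold change of -6.20 ± 0.49 (adjusted p = 7.79e-05). Its partner Tgfbr2 was at 442, 556 and 299 CPM against 134, 143 and 192, a log2 fold change of -1.47 ± 0.37 (adjusted p = 0.0278) whose call was lost without microglia 1 or 2 or any 1 T cell library. Il10ra was at 425, 528 and 508 CPM against 121, 171 and 125, a log2 fold change of -1.81 ± 0.28 (adjusted p = 0.00241). The calls of Csf2rb and Csf2ra were each lost without at least 5 of the single libraries. Tgfb1 and Il10rb were not called (adjusted p = 0.234 and 0.0704), and 2 members were called without microglia 1 and 3.

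Genes of the translation machinery stood higher in T cells as a block. Of 46 ribosomal protein genes tested, 44 were called higher in T cells and 0 in microglia, with a median log2 fold change of 1.83. All 83 ribosomal protein genes together took 7.56%, 7.03% and 5.76% of counts on genes in T cells and 1.5%, 1.49% and 1.6% in microglia, which do not overlap. The exact two-sided permutation test gave p = 0.1, the smallest that 3 against 3 libraries allow. Rpl32, a protein of the large subunit, was at 2557, 2658 and 2092 CPM in T cells and 485, 551 and 505 in microglia, a log2 fold change of 2.25 ± 0.27 (adjusted p = 0.000645). Rps3, of the small subunit, was at 2392, 2389 and 1711 CPM against 735, 601 and 674, a log2 fold change of 1.69 ± 0.27 (adjusted p = 0.00280). The elongation factor Eef1a1, outside that list, was at 3209, 4015 and 3311 CPM against 1289, 1465 and 1154, a log2 fold change of 1.43 ± 0.23 (adjusted p = 0.00289). The ribosomal differences were modest in size but nearly uniform over the list. With a single microglia library left, 7 of the 46 were called, and Rps3 and Eef1a1 were not (adjusted p = 0.0651 and 0.110), while their log2 fold changes were 1.85 and 1.26. Of the 44 calls, 37 held without each library in turn. Rpl30 and Rps27 were barely counted, at 0.809 to 2.17 CPM and 1.04 to 9.01 CPM over the 6 libraries, and ribosomal protein genes have many near-identical processed copies, so their counts are uncertain.

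The rule for naming genes also drew attention to genes outside these lists. AW112010, annotated as a long noncoding RNA, was at 4091, 4124 and 3036 CPM in T cells and 83.2, 146 and 102 in microglia, a log2 fold change of 5.09 ± 0.41 (adjusted p = 8.34e-05). Shisa5, a membrane protein linked to cell death, was at 3428, 4096 and 3168 CPM against 615, 482 and 397, a log2 fold change of 2.84 ± 0.27 (adjusted p = 0.000169). Ms4a4b, a membrane protein of T cells, was at 3805, 3792 and 3053 CPM against 12.3, 25.5 and 0, a log2 fold change of 8.13 ± 1.5 that became 9.16 without microglia 2 and 7.55 without microglia 3. These 3 genes separated the populations with no overlap. Cd52, a small glycoprotein of lymphocytes and monocytes, was at 3689, 4482 and 3194 CPM against 1141, 826 and 1221, a log2 fold change of 1.83 ± 0.29 (adjusted p = 0.00298). Coro1a, a regulator of actin in blood cells, was at 3286, 4119 and 2931 CPM against 1651, 1311 and 1260.2, a log2 fold change of 1.29 ± 0.24 (adjusted p = 0.00666). Cd96, a receptor of T and NK cells, was at 179, 354 and 266 CPM in T cells with no count in microglia, at least 875-fold.

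On the microglia side, the protein-coding genes with no count in any T cell library included Ptpro, a receptor phosphatase, at 119, 167 and 159 CPM (at least 536-fold), and Sult1a1, a sulfotransferase, at 273, 166 and 171 CPM (at least 733-fold). Gm10790, annotated as a processed transcript, was at 131, 214 and 137 CPM with no count in T cells, at least 580.4-fold. In none of these 3 genes was microglia 2 far below both other microglia libraries. With microglia 2 alone, of these only Gm10790 was called. Others of this kind followed the neutrophil genes: Cd177, a neutrophil surface protein, was at 738, 107 and 553 CPM, Trem3 at 169, 19.7 and 128 and Lcn2, a granule protein, at 4938, 572 and 5399.8, each far lower in microglia 2. Cd177 and Trem3 had no count in T cells, at least 1682-fold and 381-fold, and Lcn2 was counted in T cells 1 only, at 0.434 CPM. Of the 927 genes called higher in microglia, 36 had microglia 2 more than 3-fold below both other microglia libraries, against 13 for microglia 1 and 14 for microglia 3. Over all 13000 genes tested, the same held of 949 for microglia 2, 1422 for microglia 1 and 921 for microglia 3.

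Markers of other cells were scanned in the same way, again beside the 5.91% of all tested genes called higher in T cells and 7.13% in microglia. Of 5 regulatory T cell markers, 2 were called higher in T cells, Ctla4 at 55.7, 69.8 and 62.2 CPM and Il2ra at 34.6, 42.9 and 97.0, both with no count in microglia. Foxp3, their defining factor, was not called at 26.7, 59.3 and 85.9 CPM in T cells and 19.4, 28.6 and 17.3 in microglia, which overlap (adjusted p = 0.173). The summed list ran from 171 to 312 CPM in T cells and from 30.8 to 56.1 in microglia. Of 4 natural killer markers tested, Klrc1 and Klre1 were called higher in T cells, at 82.6, 193 and 60.9 and 84.1, 158 and 60.2 CPM with no count in microglia, while the defining gene Ncr1 was at 0, 4.14 and 0 CPM in T cells and 0, 4.94 and 0 in microglia. That list summed to 135 to 383 CPM in T cells and 0 to 14.6 in microglia. Of 8 ILC2 markers, Klrg1, Il5 and Nmur1 were called higher in T cells. The call of Nmur1 was lost when only T cell and microglia libraries were fitted (adjusted p = 0.0584 in edgeR), and 4 markers, Areg among them, were called without microglia 1 and 3. Klrg1 was at 78.6, 155 and 98.2 CPM against 6.47, 10.2 and 20.5, Il5 at 20.8, 9.58 and 5.48 against 0, 0 and 0.104 and Nmur1 at 3.36, 7.65 and 9.46 against no count, and the summed ILC2 list ran from 181 to 192 CPM in T cells and from 40.0 to 46.6 in microglia.

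Of 4 monocyte markers tested, Ly6c2 was called higher in T cells, at 2217, 1350.1 and 1044 CPM against 525, 200.5 and 523, and its call was lost without any 1 microglia library, T cells 1 or T cells 2, and without microglia 1 and 3. Over all 13000 tested genes, 2436 stood higher in every microglia library and 2398 in every T cell library. The other 3 monocyte markers were not called, and 2 of the 4 stood higher in every microglia library, with a list median of -2.78. One of them, Chil3, was at 4462, 658 and 5265 CPM in microglia and 0, 0 and 111 in T cells (log2 fold change -6.55 ± 2.38, adjusted p = 0.103), lowest in microglia 2 like the neutrophil genes. The summed monocyte list overlapped, at 1257 to 2299.5 CPM in T cells and 934 to 5908 in microglia. Most of the sum in each T cell library was Ly6c2, so this overlap rests on that gene. Border macrophage markers were called higher in microglia in 2 of 6 genes, where 7.13% of all tested genes were. Mrc1 was at 59.7, 35.5 and 0.730 CPM and Cbr2 at 44.6, 15.8 and 15.4 in microglia, both with no count in T cells, and both calls were lost without microglia 1. Of 5 basophil and mast cell markers, Prss34 and Mcpt8 were called higher in microglia, and the other 3 overlapped. Prss34 was at 100, 25.8 and 16.9 CPM in microglia with no count in T cells, and Mcpt8 at 58.0, 18.6 and 14.5 with counts in T cells 3 only. Of 5 endothelial markers, Ly6c1 and Flt1 were called higher in microglia. Ly6c1 was at 472, 155 and 151 CPM against 49.5, 53.4 and 15.3, a call lost without microglia 1, T cells 1 or T cells 3, and Flt1 at 38.9, 35.6 and 48.3 against 0, 0 and 0.398. The summed endothelial list ran from 25.7 to 108 CPM in T cells and from 265 to 731 in microglia. The calls of Cbr2, Mcpt8, Ly6c1 and Flt1 were lost without microglia 1 and 3, and that of Mcpt8 also when only T cell and microglia libraries were fitted. Of 5 oligodendrocyte markers, Mbp, a myelin protein, was called higher in T cells, at 242, 327 and 235 CPM against 57.4, 58.5 and 58.2. The other 4 were not called, among them Cnp at 213, 269 and 214 CPM against 135, 120 and 86.8. In this list 2 genes stood higher in every T cell library, 1 in every microglia library, and 2 overlapped. The summed oligodendrocyte list ran from 459 to 606 CPM in T cells and from 222 to 265 in microglia. Markers that were not called included Cd79b of B cells (adjusted p = 0.249), Zbtb46 of dendritic cells (0.308), Alas2 of erythroid cells (0.618), Snap25 of neurons (0.356) and Slc1a3 of astrocytes (0.0940). The part of such cells in the other differences was not tested.

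Last, the promoter letters were counted over all called genes. Promoter windows were found for 559 of the genes called higher in T cells, 709 of those called higher in microglia and 9953 of the genes tested, out of 27025 gene symbols in the table, and a gene counted once if any of its windows matched on either strand. The PU.1 letters GAGGAAGT were in 4.29% of T cell genes, 7.48% of microglia genes, 4.07% of tested genes and 3.69% of all genes. The RUNX letters TGTGGTT were in 9.12%, 4.09%, 4.79% and 6.09% in the same order, and the STAT letters TTCCNGGAA in 2.33%, 0.705%, 1.52% and 1.35%. The E-box CACCTG was in 22.2%, 22.0%, 20.8% and 22.6%, and the TCF/LEF letters ATCAAAG in 2.86%, 3.10%, 3.10% and 4.29%. The ETS letters ACCGGAAGT, which share GGAAGT with the PU.1 motif, were in 1.25%, 0.705%, 2.41% and 1.21%. A MEF2 motif was matched in 0.179%, 0.423%, 0.191% and 0.181%, and a joined PU.1 and IRF motif, which holds GGAAGT too, in 0.179%, 0.423%, 0.352% and 0.266%. The shares describe letters in windows of 300 bases and were not tested.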

How the data were processed

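The study deposited 1 table of counts per gene symbol. The authors' values are whole-number raw counts, although the table's title calls them normalized: as deposited, low values occurred as often as counts should (chi-square per degree of freedom 0.738 to 1.49, against 5.84 to 12.2 after trial rescaling). Per the submitters' processing notes, STAR 2.5.3a, DESeq2 1.1, Cufflinks 2.0, bcl2fastq 2.20.0.422 and FastQC 1.0.0 were used, with build mm10. Their roles, the counting program, the strand setting and the treatment of reads shared by paralogs are not given in the sources used here, so close paralogs (the Klr, Ly6, Gzm, Fcgr and H2 genes) and overlapping or antisense genes are uncertain. The row of reads outside genes (53.8% to 61.0% of reads counted), the row of ambiguous reads (0.338% to 1.23%) and 27 rows whose symbols had become dates were left out, as was 1 column of library values whose heading matches no label. The table holds no mitochondrially encoded genes. Some named genes are not reported here.

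Libraries were scaled by TMM (factors 0.822 to 1.18). The quasi-likelihood F test (two-sided) in edgeR 4.0.16 (with limma 3.58.1, R 4.3.3) was fitted to 8 libraries in 3 groups, with a mean count of at least 10. The T cell against microglia contrast called a gene where p, adjusted by Benjamini-Hochberg, was under 0.05 with a log2 fold change of 1 or more in size. Standard errors are log2 fold changes divided by the root of F, and the common BCV (the biological coefficient of variation) was 0.967. The floor of 3 counts was 0.207 to 0.326 CPM per library, and bounds cover counting error only. No 2 libraries of a population agreed within sampling noise (chi-square per degree of freedom 78.0 to 143). Alternatives were RLE, upper-quartile and library size scaling, other count minimums, DESeq2 1.42.0, limma-voom, edgeR's newer quasi-likelihood method, no abundance trend, no minimum fold, only 6 libraries, each library left out, and microglia 1 and 3 left out, which was chosen after seeing the data. The fit was also run on simulated data. Their spread was set below that of these libraries, so that run does not show how the fit performs here.

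Of 482 listed genes, 480 matched by symbol, and Ighm and Ly6g did not. Members and lists were chosen with earlier results of these data known. Named genes are, in each direction, the 10 called genes with the highest level and no overlap, the 8 with the largest fold at a mean of at least 50 CPM in the higher population, up to 4 called and 2 uncalled members of each list by level, the population markers and the adaptor chains. Others were named after their values were seen, where 5 or fewer share a direction or lose a call. Positions and exon lengths are from GENCODE M21, and an exon length joins all annotated exons of a gene, so levels per kilobase compare genes only roughly.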

Additional observations from a re-analysis of the deposited data

How the results depend on the processing

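Of 768 genes called higher in T cells and 927 called higher in microglia, none changed direction while called in any alternative run. Leaving out 1 library gave 472 to 803 T cell calls (fewest without T cells 2) and 591 to 959 microglia calls (591 without microglia 2, 613 without microglia 1). Scaling by library size only gave 1312 T cell calls and 722 microglia calls, moving the median log2 fold change of all genes from 0.00398 to 0.370 and the T cell share of calls from 45.3% to 64.5%. By contrast RLE gave 691 and 1002. DESeq2 gave 1620 microglia calls, limma-voom 1470 and the newer quasi-likelihood method 1581, against 1093, 1063 and 1142 T cell calls. Without microglia 1 and 3 there were 368 and 319, of which 288 and 317 were main calls, with microglia 2 alone assumed to vary like the other groups. For these, fewer libraries entered the fit. No paired analysis was possible because the column headings carry no replicate numbers: the sample titles number each population alike, but no column can be tied to a numbered sample. With 3 libraries a group, genes under a mean count of 10 were not tested.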

Other observations

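Several abundant transcripts had no or few counts in this table. Hba-a1, Hba-a2, Hbb-bs and Hbb-bt, the adult globin genes, and the ribosomal protein gene Rpl26 had no count in any library, and the glycolysis gene Eno1 was at 0.607 to 2.27 CPM over the 6 libraries. Alas2, the erythroid enzyme of heme synthesis, was counted at 31.8, 57.8 and 72.6 CPM in T cells and 138, 21.6 and 95.2 in microglia.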
